A study of Mus musculus with 12 samples.

Results

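The genes described here are Xbp1, Creld2 and 8 chaperones and folding enzymes of the endoplasmic reticulum (ER), namely Hspa5, Hsp90b1, Hyou1, Dnajb11, Sdf2l1, Pdia4, Pdia6 and Manf. They were taken by name from the expression table of a study of tumor dendritic cells, and all 10 were among its 11264 genes. All 10 also passed the filter on low values, as did 11255 genes in total. The table holds 12 RNA-seq libraries of conventional type 1 dendritic cells (cDC1s), sorted from B16F10 melanomas on day 13 of growth. After enrichment on CD11c beads, the gate kept cells positive for CD45, MHCII, CD24 and CD103 and negative for CD11b, Ly6C and F4/80.

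The mice, 7 to 10 weeks old, were either WT (C57BL/6) or Clec9agfp/gfp, in which a GFP insertion removes DNGR-1, the receptor encoded by Clec9a, on the same background. All mice received a hydrodynamic plasmid injection 1 day before the tumor cells, and the plasmid encoded Flt3L (FL) or was empty (control). Flt3L, the growth factor of dendritic cells, was in this way secreted by the liver. The 4 groups, WT control, Clec9agfp/gfp control, WT FL and Clec9agfp/gfp FL, had 3 libraries each, and every library came from 2 to 3 pooled mice, so that the spread between libraries is a spread between pools. The design asks whether Flt3L changes cDC1s in the tumor and whether DNGR-1 alters that change.

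Secreted and membrane proteins fold in the ER with the help of chaperones, and a surplus of unfolded protein triggers the unfolded protein response through the sensors IRE1, PERK and ATF6. IRE1 splices the Xbp1 transcript, and the spliced form encodes a transcription factor that raises chaperones, protein disulfide isomerases and the import machinery of the ER. In mice, cDC1s are known for constant IRE1 activity and for their need of XBP1 in some tissues. The counts here are per gene and cannot tell spliced from unspliced Xbp1.

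The elements through which ATF6 and XBP1 are known to act on these genes are short, and the stretches that carry them are shown because they are what several of the 10 genes share apart from their function. RefSeq promoter windows (GRCm38.p6, 250 bases before to 50 after the start of transcription, 300 in all) were available for 8 of the 10 genes. The ER stress response element, searched on both strands as CCAAT and CCACG with 9 bases between them, was found in 4 of these 8 windows and in 0.119% of all 32851 windows. The related ERSE-II, searched as ATTGG and CCACG with 1 base between them, was found in 1 of the 8 and in 0.0365% of all. The UPRE core TGACGTGG was found in 0 of the 8 and in 0.676% of all. A match is a string of letters and says nothing of binding in these cells. Capitals mark the element, and each stretch reads 5′ to 3′ on the strand of its gene.
Hspa5 (chr2:34772020-34772048, plus strand): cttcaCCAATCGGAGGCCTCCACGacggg
Hsp90b1, distal (chr10:86705623-86705671, minus strand): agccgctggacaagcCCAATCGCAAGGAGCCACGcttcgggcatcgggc
Hsp90b1, proximal (chr10:86705518-86705566, minus strand): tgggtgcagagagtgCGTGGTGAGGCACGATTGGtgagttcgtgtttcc
Pdia6 (chr12:17266476-17266524, plus strand): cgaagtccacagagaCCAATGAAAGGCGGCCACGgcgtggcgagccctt
Creld2 (chr15:88819505-88819553, plus strand): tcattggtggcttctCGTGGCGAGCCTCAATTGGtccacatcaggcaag
Dnajb11, ERSE-II (chr16:22857843-22857871, plus strand): ccggcggcgATTGGCCCACGcctggctgc

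In Creld2 and in the proximal copy of Hsp90b1 the element lies on the strand opposite to the gene, so it reads as its reverse complement. Counted from the RefSeq start, the element begins at base -65 in Hspa5, -98 in Pdia6, -126 in Creld2, and -212 and -107 in Hsp90b1. The ERSE-II of Dnajb11 lies just after the start, at base 8. The windows of Xbp1, Sdf2l1 and Pdia4 held none of the 3 strings.

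Some facts of the libraries bear on the values below. Values are counts per M counts of a library scaled by TMM, here called CPM, and the scaled libraries corresponded to 3.06 M counts in Clec9agfp/gfp control 3 and to 14.4 to 25.9 M in the others. The lowest count behind any value of the 10 genes was 228, for Hyou1 in Clec9agfp/gfp control 3. Clec9a was at 336 ± 43.5 CPM in WT control and 348 ± 34.5 in WT FL (SD, n = 3). It was at 0.509, 1.31 and 10.9 CPM in Clec9agfp/gfp control and at 1.36, 0.269 and 0.789 in Clec9agfp/gfp FL, low in all 6 libraries labelled Clec9agfp/gfp. The 11 cDC1 markers were all present, with summed levels of 9012 to 10707 CPM. Of the markers of other cells, 2 of 12 for B and plasma cells were in the table (Ighm and Derl3), 1 of 10 for T and NK cells (Cd4), and 0 of 6 for neutrophils. Ighm and Derl3 summed to 340 to 624 CPM. For melanoma 9 of 11 were in the table, summing to 23.9 to 147 CPM. For conventional type 2 dendritic cells (cDC2s) it was 6 of 7, at 25.5 to 73.4 CPM. For plasmacytoid dendritic cells it was 4 of 7, at 43.5 to 73.5 CPM. The 13 macrophage and monocyte genes in the table summed to 1224 to 1726 CPM in WT control, 965 to 1392 in Clec9agfp/gfp control, 1165 to 1489 in WT FL and 1380 to 1815 in Clec9agfp/gfp FL. WT control 1 and 3 stood apart from the other libraries on the first principal component (32.9% of the variance), at -50.0 and -54.9. At the other end Clec9agfp/gfp FL 3 was at 46.3, and the next library, Clec9agfp/gfp FL 1, at 27.3. In WT control 1 and 3 long transcripts were also low against short ones. The difference between the outer quartiles of exon length was -0.31 and -0.85 there on the log2 scale. It was -0.17 in WT control 2 and -0.12 to 0.31 in the other 9.

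**Figure D1:**
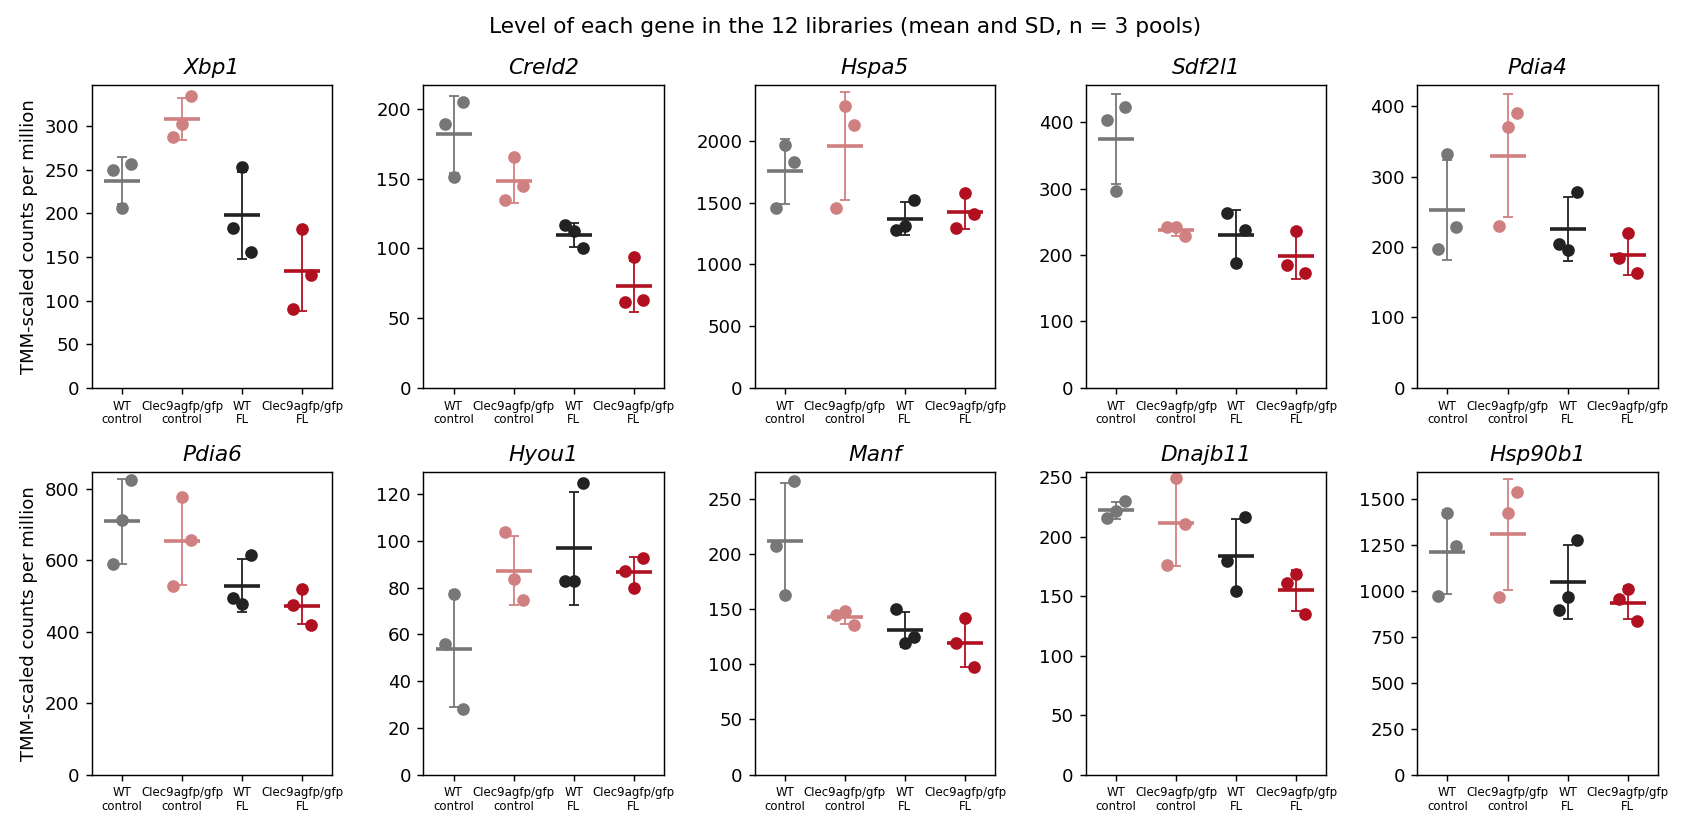
Level of each of the 10 genes in CPM (vertical axis, from 0) in the 4 groups. Points are libraries, and bars are the mean and SD of 3 pools. Creld2 is below 117 CPM in all 6 FL libraries and above 134 in all 6 control libraries, and Hyou1 is lowest in WT control 3, at 27.9 CPM.

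The genes were abundant. Per kb of exon, the mean level over the 12 libraries was highest for Hspa5, the ER Hsp70 known as BiP, at 433 CPM per kb, and for Hsp90b1, the ER Hsp90 known as GRP94, at 398 CPM per kb. The disulfide isomerase Pdia6 followed at 271 CPM per kb and Sdf2l1, which works with BiP and its J proteins, at 234. Pdia4, Creld2 and Xbp1 were near each other, at 104, 93.8 and 91.7 CPM per kb. Manf, a secreted factor that binds BiP, was at 61.5 and the BiP cochaperone Dnajb11 at 59.6, and neighbours in this order were not tested against each other. Hyou1, the large Hsp70 that exchanges nucleotides on BiP, was lowest at 17.0 CPM per kb. By CPM, all 10 genes lay above the 80th percentile of the table, the lowest being Hyou1 at 80.3 and the highest Hspa5 at 99.6.

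Averaged over the genotypes, most of the 10 genes were lower with FL. At an adjusted p under 0.1 in limma, 8 of 10 were lower and none was higher, against 7.85% of all genes tested called lower and 9.60% called higher. The median log2 fold change of the 10 genes was -0.45, and that of all genes was -0.0019. Creld2 fell the most, then Xbp1 (-0.77, adjusted p = 0.013 by limma), Sdf2l1 (-0.49), Manf (-0.47) and Pdia4 (-0.46), followed by Pdia6, Hspa5 and Dnajb11. Hsp90b1 was at -0.34 (adjusted p = 0.17), and Hyou1 was the exception in sign, at 0.46 (adjusted p = 0.16). Markers of some other cells moved with FL as well. Of the macrophage and monocyte genes, 5 of 13 were higher and 0 lower in the average (median log2 fold change of 0.65). In Clec9agfp/gfp 4 were higher (background 2.01%, median 0.98) and in WT 0 (background 5.37%, median 0.26). Their mean summed level in WT was 1464 CPM in control and 1304 with FL, and in Clec9agfp/gfp it was 1108 and 1532. Of the fibroblast and endothelium genes 1 of 4 was higher (median 0.76), with a summed level of 7.13 to 41.4 CPM in the controls and 15.2 to 54.2 with FL. Of the cDC2 genes 2 of 6 were higher and 1 was lower. Calls were 0 of 9 for melanoma, 0 of 4 for plasmacytoid dendritic cells and 0 of 2 for B and plasma cells. The part of all these markers in the values of the 10 genes was not tested. As bulk values, these cannot tell fewer cells with high expression from less RNA per cell.

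Creld2 encodes an ER protein with disulfide isomerase activity that is induced by ER stress, and it lies on chromosome 15 from 88819646 to 88826683 (GRCm38). Its level was 189, 151 and 205 CPM in WT control and 135, 165 and 145 in Clec9agfp/gfp control. With FL it was 117, 112 and 100 CPM in WT and 61.6, 93.9 and 62.9 in Clec9agfp/gfp. All 6 FL libraries were therefore below all 6 control libraries, which was the case for 1.26% of genes and for no other of the 10. The log2 fold change with FL was -0.88 (SE 0.14, adjusted p = 0.0057 by limma) as the average of both genotypes. It was -0.72 (SE 0.20, adjusted p = 0.077) in WT and -1.04 (SE 0.20, adjusted p = 0.016) in Clec9agfp/gfp cDC1s. Creld2 starts 328 bases from Alg12, a mannosyltransferase gene read in the opposite direction. Alg12 went from 10.7 ± 3.17 to 13.5 ± 1.95 CPM with FL in WT and from 10.6 ± 2.05 to 14.3 ± 2.35 in Clec9agfp/gfp (SD, n = 3), and the averaged log2 difference was 0.36 (limma, adjusted p = 0.24).

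Xbp1, the transcription factor of the IRE1 branch, lies on chromosome 11 from 5520659 to 5525893 (GRCm38). It was at 249, 206 and 256 CPM in WT control and at 287, 302 and 335 in Clec9agfp/gfp control. With FL it was at 183, 253 and 156 CPM in WT and at 90.3, 182 and 129 in Clec9agfp/gfp. The groups did not overlap between control and FL in Clec9agfp/gfp cDC1s, whereas in WT 1 FL library was as high as the controls. The log2 fold change with FL was -1.25 (SE 0.24, adjusted p = 0.015 by limma) in Clec9agfp/gfp, which is 42.0% of the control level, and -0.29 (SE 0.24, adjusted p = 0.50) in WT. The difference between these effects, the interaction of genotype and FL, was -0.97 (SE 0.34, 95% interval -1.68 to -0.25) with an unadjusted p of 0.011 and an adjusted p of 0.45 over all genes, so a different effect in the 2 genotypes was not called.

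**Figure D2:**
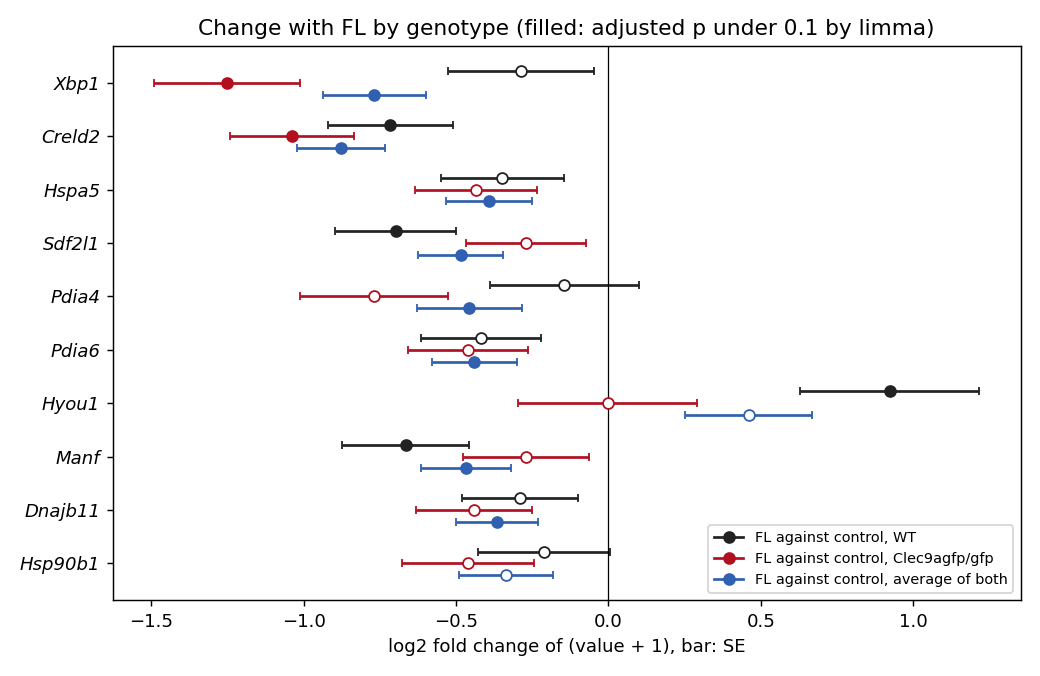
Log2 fold change with FL (horizontal axis, of the value plus 1, bars are SE) for each gene in WT, in Clec9agfp/gfp and as the average of both. Filled points had an adjusted p under 0.1 by limma. Creld2 is filled in all 3, Xbp1 in Clec9agfp/gfp and in the average, and Hyou1 only in WT, on the other side of 0.

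In Clec9agfp/gfp cDC1s, Xbp1 and Creld2 were the 2 of 10 genes called lower with FL, against a background of 3.45% lower, and none was called higher (2.01%). Both were called in all 25 alternative settings, with log2 fold changes of -1.50 to -1.0 for Xbp1 and -1.24 to -0.93 for Creld2. All 10 genes were below 0 in this comparison, with a median of -0.45 against 0.01 for all genes, although Hyou1 was at 0.00 (95% interval -0.62 to 0.62). The FL libraries were below the control libraries without overlap in 5 of 10 genes (background 13.6%), adding Pdia4, Pdia6 and Dnajb11. Pdia4 was at 229, 370 and 390 CPM in Clec9agfp/gfp control and at 184, 221 and 163 with FL. Its log2 fold change of -0.77 (SE 0.24) had an adjusted p of 0.105 by limma, just past the threshold. Without Clec9agfp/gfp control 1, Pdia4 and Hspa5 were called as well, which made 4. In WT, Pdia4 was at 197, 332 and 229 CPM in control and at 204, 196 and 278 with FL, and the groups overlapped.

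In WT cDC1s, 4 of the 10 genes were called. Creld2, Sdf2l1 and Manf, 3 of 10, were lower (background 1.19%) and Hyou1, 1 of 10, was higher (background 5.37%), and each of these 4 did not overlap between FL and control (background 10.8% lower and 12.1% higher). Sdf2l1 was at 403, 297 and 423 CPM in WT control and at 263, 188 and 238 in WT FL, a difference of -0.70 on the log2 scale (SE 0.20, adjusted p = 0.0735 by limma). Manf was at 207, 163 and 266 CPM in WT control and at 150, 120 and 125 in WT FL, where the log2 difference was -0.67 (SE 0.21, adjusted p = 0.093). In both genes WT control 1 and 3 were the highest of all 12 libraries. In Clec9agfp/gfp, Sdf2l1 was at 242, 241 and 228 CPM in control and at 185, 236 and 172 with FL, with a log2 difference of -0.27 (95% interval -0.69 to 0.15). Manf was at 145, 148 and 136 CPM in Clec9agfp/gfp control and at 119, 142 and 97.8 with FL, also a log2 difference of -0.27 (95% interval -0.71 to 0.17). FL and control libraries overlapped in both genes there. Manf overlaps Dcaf1 and Rbm15b in the annotation, and the kit does not mark strand, so reads in the shared parts are uncertain, but these genes were at most at 12 CPM.

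Hyou1 went the other way. It was at 56.1, 77.4 and 27.9 CPM in WT control, at 82.9, 82.7 and 125 in WT FL, at 104, 83.7 and 74.6 in Clec9agfp/gfp control and at 86.9, 79.9 and 92.7 in Clec9agfp/gfp FL. WT control 1 and 3 were the lowest of all 12 libraries, and WT control 3 was far below the rest. Its log2 fold change with FL was 0.92 (SE 0.29, adjusted p = 0.097 by limma) in WT. The interaction was -0.93 (SE 0.42), with an unadjusted p of 0.040 and an adjusted p of 0.53.

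The 4 calls in WT were also examined against exon length and single libraries. Exon length was 1.11 kb for Sdf2l1 and 1.37 kb for Creld2, the shortest of the 10, and 4.77 kb for Hyou1, the longest, whereas Manf was in the middle at 2.46 kb. Across 11242 genes, the fold change with FL correlated with exon length at 0.46 (Spearman) in WT and at 0.04 in Clec9agfp/gfp. Genes of a library are not independent replicates, and these coefficients describe the libraries. With a length trend removed from each library, none of the 4 was called in WT, and the log2 fold change was -0.43 for Creld2, -0.40 for Sdf2l1, -0.63 for Manf and 0.65 for Hyou1, with adjusted p of 0.23, 0.25, 0.13 and 0.22 by limma. At the length used, the value of Manf thus hardly moved, and over all genes the calls went from 738 to 70. Exon length joins all annotated exons of a gene, and the length of the Manf transcripts in these cells was not measured. Without WT control 1, without WT control 3, without WT FL 2 or without WT FL 3 none was called either, and the calls over all genes were 373, 0, 0 and 36. Over these 4 fits the log2 fold change was -0.73 to -0.62 for Creld2, -0.73 to -0.56 for Sdf2l1 and -0.67 to -0.49 for Manf, and that of Hyou1 was 0.52 to 1.02, with 0.52 without WT control 3. The count of the 4 genes called was 1 without WT FL 1 or Clec9agfp/gfp FL 1, and 2 without Clec9agfp/gfp control 2, Clec9agfp/gfp control 3 or Clec9agfp/gfp FL 2. In Clec9agfp/gfp cDC1s the length-adjusted values of Xbp1 (-1.18, adjusted p = 0.011) and Creld2 (-1.05, adjusted p = 0.0076) stayed called.

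**Figure D3:**
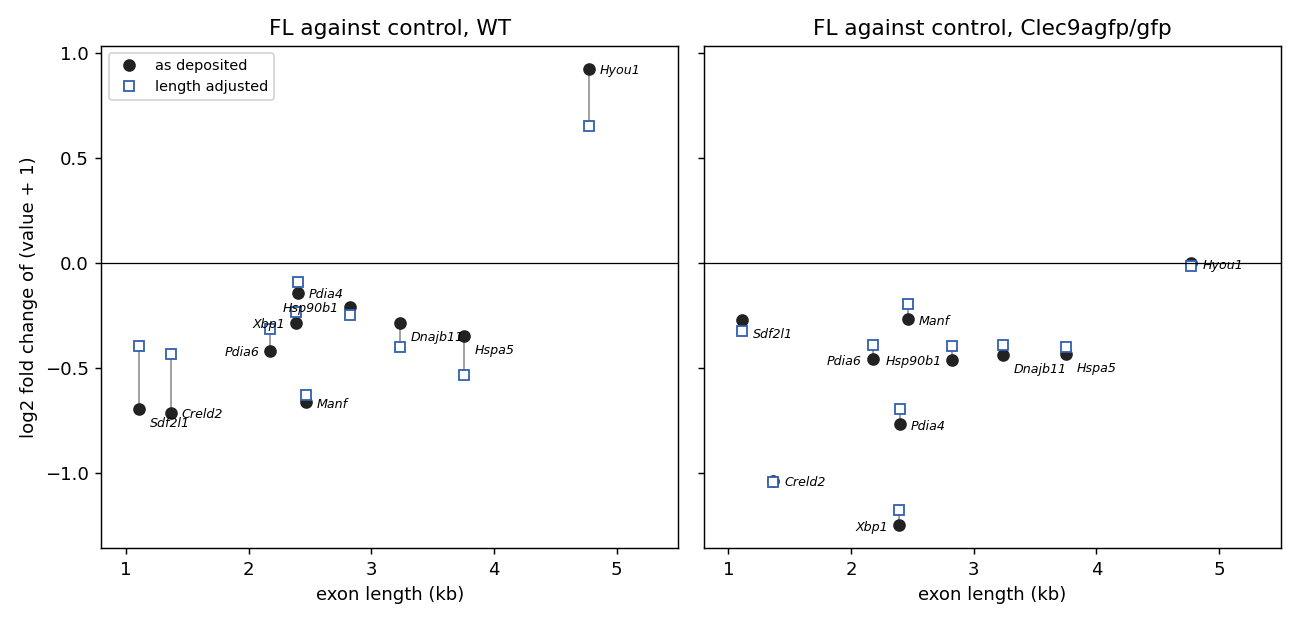
Log2 fold change with FL (vertical axis, of the value plus 1) against exon length in kb (horizontal axis) for the 10 genes in WT (left) and Clec9agfp/gfp (right). Circles are the values as deposited and squares the values after a length trend was removed from each library. In WT Sdf2l1 moves from -0.70 to -0.40 and Hyou1 from 0.92 to 0.65, while in Clec9agfp/gfp Creld2 stays at -1.04 and -1.05.

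The number of calls in the average also depended on single libraries. Of the 8 genes, only Xbp1 and Creld2 were called without WT FL 2 or without Clec9agfp/gfp FL 3, and with them only Sdf2l1 without WT control 3, Clec9agfp/gfp control 2 or Clec9agfp/gfp FL 1. The count was 4 without WT FL 1 and 5 without Clec9agfp/gfp control 3. Creld2 alone was called without both WT control 1 and WT control 3. The calls over all genes fell too, from 1965 to 1359 without WT FL 2, 995 without Clec9agfp/gfp FL 3 and 242 without both WT controls, while the median of the 10 genes was -0.41, -0.40 and -0.46. With length adjusted, 7 were called, all lower. Creld2 was called in all 24 alternatives of this comparison and Xbp1 in 23.

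Hspa5, Hsp90b1, Pdia6 and Dnajb11 had smaller differences. Hspa5 was at 1457, 1970 and 1832 CPM in WT control and at 1460, 2286 and 2125 in Clec9agfp/gfp control. With FL it lay between 1276 and 1574 CPM in all 6 libraries, and control 1 of either genotype fell in that range. The averaged log2 fold change was -0.39 (SE 0.14, adjusted p = 0.088 by limma) for Hspa5, -0.44 (adjusted p = 0.055) for Pdia6 and -0.37 (adjusted p = 0.091) for Dnajb11. Dnajb11 had the tightest WT control, at 215, 222 and 230 CPM, against 180, 154 and 216 in WT FL, with 1 FL library at the level of the controls. In Clec9agfp/gfp it was at 176, 249 and 210 CPM in control and at 161, 169 and 135 with FL, without overlap. Pdia6 ranged from 529 to 825 CPM in the controls and from 418 to 613 with FL. Hsp90b1 ranged from 965 to 1533 CPM in the controls and from 834 to 1274 with FL. Of the 4 genes with the ER stress response element shown above, Creld2, Hspa5 and Pdia6 were called lower in the average and Hsp90b1 was not. Dnajb11, with the ERSE-II, was called lower. Of the 3 without any of the strings, Xbp1, Sdf2l1 and Pdia4, all were. Without a window were Manf, called lower, and Hyou1, not called. Whether the strings bear on the calls was not tested.

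The loss of DNGR-1 did not give a call in any of the 10 genes under either plasmid. With the control plasmid, limma called 0 of 10 (background 0.0178% lower and 0.00888% higher), and limma-voom called 0 as well. At an unadjusted p under 0.05, Sdf2l1 (-0.64) and Manf (-0.54) were lower and Hyou1 (0.79) higher in Clec9agfp/gfp, against 8.84% and 10.8% of all genes. Across genes, the difference with the control plasmid correlated with exon length at 0.47 (Spearman). Sdf2l1, Manf and Hyou1 are the 3 genes in which WT control 1 and 3 were extreme, and without WT control 2 all 3 were called. In that fit the calls over all genes rose steeply as well, so the change was not limited to these genes. Xbp1 was higher in all 3 Clec9agfp/gfp control libraries than in all 3 WT control libraries (background 8.23%), but with a log2 difference of 0.38 (95% interval -0.13 to 0.88) and an adjusted p of 0.39. With FL, limma again called 0 of 10 (background 0.0178% lower and 0.00888% higher), as did limma-voom. Creld2 (-0.61, 95% interval -1.04 to -0.18) and Xbp1 (-0.59, 95% interval -1.09 to -0.08) had an unadjusted p under 0.05, against 2.60% of all genes called lower in this way, and both had an adjusted p of 1.00. Creld2 was lower in all 3 Clec9agfp/gfp FL libraries than in all 3 WT FL libraries (background 5.36%).

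Clec9agfp/gfp FL and WT control cDC1s differ in genotype and plasmid together, and this comparison shares its libraries with those above. Lower were 6 of 10 genes (background 9.85%). These were Creld2 (-1.33, adjusted p = 0.0056 by limma), Sdf2l1 (-0.91), Xbp1 (-0.87), Manf (-0.81), Pdia6 (-0.58) and Dnajb11 (-0.52). Hyou1 (0.79) was higher (background 12.8%). Across genes, the fold change correlated with exon length at 0.40 (Spearman). With length adjusted 5 were called, all lower, but not Pdia6 (-0.47, adjusted p = 0.102 by limma) or Hyou1 (0.52, adjusted p = 0.21). The count of 7 became 2 without WT control 3 or without Clec9agfp/gfp FL 3, and 3 without Clec9agfp/gfp FL 1. In these fits the calls over all genes fell steeply too. The median log2 fold change of the 10 genes was -0.55 in the main fit. It was -0.48 without WT control 3, -0.46 without Clec9agfp/gfp FL 3 and -0.57 without Clec9agfp/gfp FL 1. Without both WT control 1 and 3, which leaves WT control 2 alone in its group, that median was -0.60. The calls of the main fit did not hold there. Between WT FL and Clec9agfp/gfp control, limma and limma-voom called 0 of 10 (background 0.00888% lower and 0.0178% higher), with Xbp1, Hspa5 and Pdia4 lower in WT FL at an unadjusted p under 0.05 (background 3.56%). The interaction gave 0 of 10 and 0 of all genes by limma, and limma-voom called 0 of 10. At an unadjusted p under 0.05 by limma, 2 of 10, Xbp1 and Hyou1, were below 0 (background 6.04%). At that threshold 1027 of all genes differed in either direction. Across genes, the interaction correlated with exon length at -0.39 (Spearman).

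The 10 genes did not vary as a single block. Over the 12 libraries, Sdf2l1 and Manf ran together (Pearson r = 0.96), as did Pdia4 with Hsp90b1 (0.95), Pdia6 with Dnajb11 (0.94) and Hspa5 with Hsp90b1 (0.90). Sdf2l1 and Manf had low values with Pdia4 (0.17 and 0.16), Hsp90b1 (0.28 and 0.29) and Hspa5 (0.30 and 0.33), while Pdia6 and Dnajb11 were at 0.67 to 0.70 with Sdf2l1 and Manf and at 0.74 to 0.85 with Hspa5, Hsp90b1 and Pdia4. Xbp1 was closest to Creld2 (0.84), and Hyou1 ran against Manf (-0.84) and Sdf2l1 (-0.74). Against the mean of the other 9 genes, Dnajb11 and Pdia6 were highest (0.93 each) and Hyou1 was at -0.50. These coefficients include the differences between groups and are a description of 12 libraries that share their scaling.

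**Figure D4:**
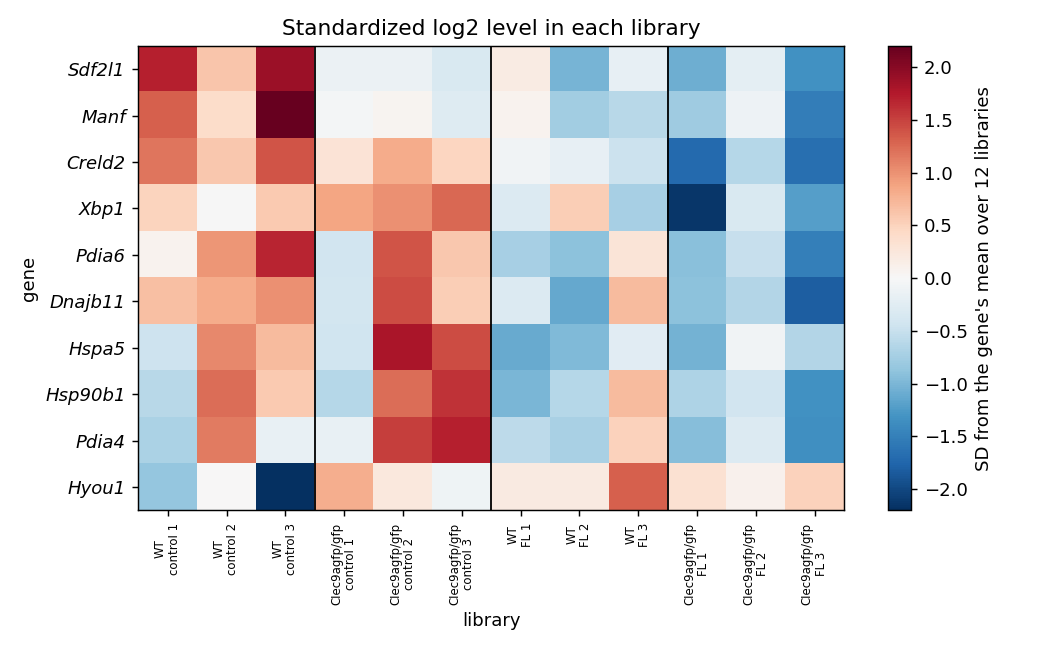
Standardized log2 level of each gene (rows) in each library (columns, by group), as SD from the gene's mean over the 12 libraries. Sdf2l1 and Manf are highest in WT control 1 and 3, where Hyou1 is lowest, and Hspa5, Hsp90b1 and Pdia4 are high in Clec9agfp/gfp control 2 and 3. The order of the rows was chosen after the values were seen.

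**Figure D5:**
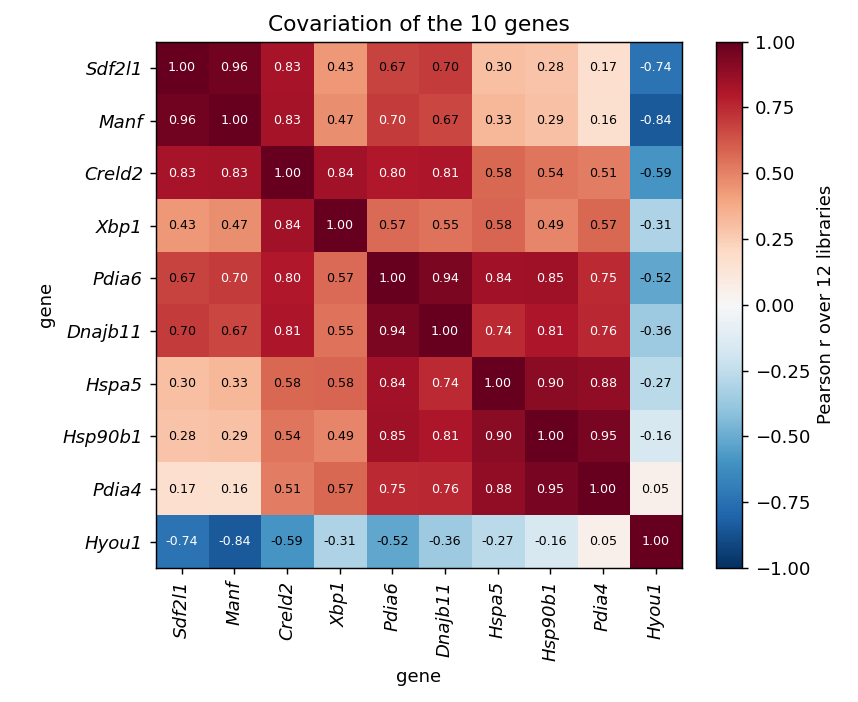
Pearson r of the log2 levels over the 12 libraries for each pair of the 10 genes (rows and columns in the same order as in the plot of standardized levels). Sdf2l1 and Manf form a pair at 0.96, Hspa5, Hsp90b1 and Pdia4 are at 0.88 to 0.95 with each other, and Hyou1 is at or below 0.05 with every other gene.

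Among the 10 other genes most like the mean standardized level of the set, over 12 libraries, were Nuf2 (r = 0.97) and Ndc80 (0.96). Sephs2, Actl6a, Nifk and Ccz1 were at 0.95, and Dkc1, Sae1 and Nudc at 0.94. Nuf2 and Ndc80 are subunits of the kinetochore complex that binds microtubules. The cell-cycle list moved with the set, as 15 of 27 genes were called lower with FL as the average and 0 higher (median -0.48). Over all genes tested 7.85% were lower and 9.60% higher, and the same shares stand beside the next lists. Its summed level was 3097 to 4114 CPM in WT control, 3777 to 4970 in Clec9agfp/gfp control, 2671 to 3723 in WT FL and 1972 to 2963 in Clec9agfp/gfp FL. The mature dendritic cell list moved the other way, with 10 of 15 higher and 0 lower (median 0.83). Of 21 cytosolic heat shock and dissociation genes, 7 were lower and 0 higher, with a summed level of 13543 to 14842 CPM in the 6 controls and 9936 to 12765 with FL. The part of these lists in the values of the 10 genes was not tested either.

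Among the other genes of the pathway, calls were fewer. Of 9 sensors and proteases, 1 was higher with FL as the average (Atf6b, 0.50) and 0 lower, with a median of 0.25. Ern1, which encodes IRE1, was at 7.31 ± 2.67 CPM in WT control, 15.3 ± 4.6 in WT FL, 9.74 ± 3.37 in Clec9agfp/gfp control and 10.9 ± 2.51 in Clec9agfp/gfp FL (SD, n = 3), and its log2 fold change in WT of 0.98 had an adjusted p of 0.11 by limma. Of 15 other disulfide isomerases and oxidative folding genes, 4 were lower (Txndc5 at -0.90, Ero1l at -0.65, Prdx4 at -0.56 and Pdia3 at -0.43) and 1 higher, with a median of -0.22. Ero1l, the oxidase that recharges the disulfide isomerases, was at -1.37 in Clec9agfp/gfp, and Txndc5 at -1.26. Of 21 glycoprotein chaperones and cochaperones, 3 were lower and 1 higher (median -0.06). Here 2 J proteins of BiP were called in opposite directions, Dnajc3 at -0.88 and Dnajb9 at 0.58.

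For import into the ER, 6 of 32 genes were lower and 0 higher (median -0.22), among them the oligosaccharyltransferase subunits Stt3b (-0.89), Rpn1 (-0.49) and Ddost (-0.35) and the signal peptidase subunit Spcs2 (-0.44). In Clec9agfp/gfp alone Stt3b was at -1.75. Of 26 genes of ER-associated degradation, 2 were lower (Ube2j2 and Selenos) and 0 higher (median -0.11). Of 31 genes of ER exit and Golgi traffic, 2 were lower and 3 higher (median -0.05). The cargo receptor Tmed2 was at -1.09, the coat protein Sec24c at 0.74 and Sec16a at 0.68. In the PERK and ATF4 branch 5 of 27 were lower and 2 higher (median -0.19), with the glycyl-tRNA synthetase Gars at -1.47 and Ppp1r15b, which directs the removal of phosphate from eIF2α, at 0.73. Of 5 substrates of IRE1-dependent decay in the table, 1 was lower, Hgsnat at -1.09, and 0 were higher (median 0.02). These lists stand beside the all-gene shares of 7.85% lower and 9.60% higher.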

How the data were processed

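Per the submitters' processing notes, the reads (61 bases, single end, unstranded kit) passed through CASAVA 1.8.2 and cutadapt 1.3, and RSEM 1.2.3 assigned them to GRCm38 transcripts. The authors deposited TMM-scaled signal values in counts per M (CPM), after a filter on low genes whose rule was not given in the sources used here. Each value equaled a whole count plus 0.5 over a library factor, within 0.02 counts, which gave the depths. As values are normalized, log2(value + 1) of the 11255 genes with a mean of at least 1 was tested with limma 3.58.1 in R 4.3.3 (1 mean per group over 12 libraries, variance trend, Benjamini-Hochberg within each comparison, threshold 0.1), and the code was tested on simulated data. The study describes 3 independent experiments, but the labels do not say which library belongs to which, so p-values measure the spread between pools. Groups came from the titles. Alternatives covered the pseudocount, the filter, scaling, limma-voom, sample weights, the replicate block, the groups in the fit and each library left out. Exon length, with all annotated exons of a gene joined, came from GENCODE M21 (GRCm38). The 10 genes and the lists were chosen with earlier results of these data known. Named genes were the 10 members, Clec9a, up to 4 called genes per pathway list with the smallest p, and the 10 most similar genes, of which 1 is not reported here, and Alg12, Dcaf1, Rbm15b and Ern1 were added as neighbours or sensor. Promoter windows came from RefSeq, and 2 genes, Hyou1 and Manf, had none.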

Additional observations from a re-analysis of the deposited data

How the results depend on the processing

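Counts of the 10 genes called changed by over 1.5 times in these settings. For FL in WT (4) the count was 1 with equal column totals, 1 with sample quality weights, 2 with the replicate block, 0 with only the groups compared, 0 with length adjusted and 0 without both WT control 1 and 3, and leaving out 1 library gave 0 to 4. With equal column totals the calls over all genes in WT rose while those of the 10 genes fell. With quality weights, the replicate block, only the groups compared or length adjusted, both fell. For FL in Clec9agfp/gfp (2) the count was 7 with quality weights, where the calls over all genes rose too, and 2 to 4 with 1 library left out. For the average (8) it was 5 with equal column totals, 1 without both WT controls, and 2 to 9 with 1 library left out. For Clec9agfp/gfp against WT with the control plasmid (0) leaving out 1 library gave 0 to 3. The 3 came without WT control 2, where the calls over all genes rose steeply as well. For Clec9agfp/gfp FL against WT control (7) it was 4 with only the groups compared, where the calls over all genes fell too. It was 2 to 7 with 1 library left out. In the fit without both WT control 1 and 3, which leaves WT control 2 alone in its group, the calls of the main fit did not hold. Over all comparisons, the sign of 15 of 80 log2 differences changed in some setting, 0 of them called, and 2 of the 15 were effects of FL within a genotype. Of these, Pdia4 with FL in WT ranged from -0.304 to 0.0695 with 1 library left out, and Hyou1 with FL in Clec9agfp/gfp from -0.108 to 0.126, and was 0.063 with upper-quartile scaling, 0.0124 with quality weights and 0.00036 with GC adjusted. The cause of these changes was not tested. The other 166 counts stayed within 1.5 times, not always with the same genes. The replicate block left Manf and Hyou1 uncalled in WT and Dnajb11 uncalled in the average. Length and GC adjustment and the joint removal of both WT controls were chosen after seeing the data. Same-numbered libraries deviated together in some pairs and not in others (18 pairs, correlations of -0.22 to 0.34, 5 over 0.1). Highest were Clec9agfp/gfp control 1 with WT FL 1 (0.34) and with WT control 1 (0.32). Whether the numbers mark the experiments cannot be told from the labels. They were not taken as pairs in the main fit, and the replicate block is the alternative. The planned edgeR alternative was not run, and limma-voom was the test on counts computed from the values. Depth was lowest in Clec9agfp/gfp control 3 (3.06 M counts), which limits low genes more than these 10.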
